A study of Mus musculus with 30 samples.

Results

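The 10 genes described here belong to the interleukin-1 (IL-1) system and the inflammasome, and were followed in the hippocampus and frontal cortex of mice after lipopolysaccharide (LPS). They were matched by symbol to the deposited table of read counts. All 10 were found among its 48820 gene identifiers. They comprise the ligands Il1b, Il1a and Il18, the receptor antagonist Il1rn, the receptor genes Il1r1, Il1rap, Il1r2 and Il1rl1, and the inflammasome genes Nlrp3 and Casp1.

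The 30 poly(A) RNA libraries came from adult male wild type C57BL/6J mice, 8 to 12 weeks old when obtained, in a model of Gulf War Illness. Every mouse, controls included, had drunk water with 200 mg/L of the stress hormone corticosterone (CORT) and 0.6% ethanol for 7 days, had been injected with the organophosphate diisopropyl fluorophosphate (DFP, 4 mg/kg) on day 8, and had then had further CORT courses within a schedule of 5 weeks. The groups were CORT+DFP+Saline collected at 6 h (3 libraries per tissue) and CORT+DFP+LPS (0.5 mg/kg, subcutaneous) collected at 6, 12 and 24 h (4 libraries per tissue and time). No mice without CORT and DFP were analysed here, and saline was collected at 6 h alone, so at 12 h and 24 h the LPS effect and the collection time cannot be told apart.

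IL-1 alpha and IL-1 beta are made by microglia, macrophages and other cells as precursor proteins, and both signal through the receptor encoded by Il1r1 together with the accessory protein encoded by Il1rap. Il1rn encodes a secreted antagonist that occupies this receptor without signalling, and Il1r2 encodes a decoy receptor that binds IL-1 without passing on a signal. Nlrp3 encodes a sensor that assembles an inflammasome through the adaptor Pycard, and Casp1 encodes the protease that cuts the IL-1 beta and IL-18 precursors to their active forms. Receptor engagement acts through MyD88 and IRAK kinases on NF-kB. In the brain the system is known for its part in fever and sickness behaviour. RNA counts say nothing of the cleavage of these proteins.

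Il1b and Il1a lie side by side on chromosome 2 (GRCm38), Il1b at 129364570 to 129371139 and Il1a at 129299610 to 129309972, both on the minus strand and 54.6 kb apart. Il1rn lies on the same chromosome, 105 Mb away (24336853 to 24351494, plus strand). These 3 genes are the ones called higher after LPS in both tissues by edgeR, so the 250 bases before their start sites are shown, from RefSeq (GRCm38.p6), 5′ to 3′ on the strand of the gene. The windows are chr2:129371140-129371389 for Il1b, chr2:129309973-129310222 for Il1a and chr2:24336610-24336859 for the first of the Il1rn starts. Capitals mark a TATA box (TATAAA, searched on the strand of the gene) and an AP-1 motif (TGANTCA, both strands).

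Il1b: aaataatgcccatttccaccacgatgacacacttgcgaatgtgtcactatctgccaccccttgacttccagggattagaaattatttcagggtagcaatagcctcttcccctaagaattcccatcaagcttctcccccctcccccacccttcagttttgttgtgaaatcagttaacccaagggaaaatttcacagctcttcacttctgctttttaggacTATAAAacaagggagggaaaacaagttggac

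Il1a: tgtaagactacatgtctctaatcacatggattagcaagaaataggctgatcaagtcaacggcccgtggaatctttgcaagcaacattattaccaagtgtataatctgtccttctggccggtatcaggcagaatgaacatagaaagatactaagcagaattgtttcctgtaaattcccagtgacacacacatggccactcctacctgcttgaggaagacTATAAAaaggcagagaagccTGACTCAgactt

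Il1rn: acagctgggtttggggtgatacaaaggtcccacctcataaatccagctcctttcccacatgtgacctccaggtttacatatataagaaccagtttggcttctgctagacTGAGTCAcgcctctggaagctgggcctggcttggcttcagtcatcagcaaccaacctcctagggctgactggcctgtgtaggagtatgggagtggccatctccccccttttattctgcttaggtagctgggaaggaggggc

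The search covered windows of 300 bases (250 before and 50 after each start), 15 windows for the 10 genes. TATAAA was at -32 in Il1a and at -31 in Il1b, counted from the start site, and in no other window of the 10 genes. It was in 8.32% of the 32851 promoter windows of all genes. The AP-1 letters were at -12 in Il1a and at -141 in Il1rn (7.81% of all windows). The PU.1 letters GAGGAA, on either strand, were in windows of Il1a, Il1rl1, Casp1 and Nlrp3 (28.3% of all windows). A NF-kB motif was in a window of Il1r1 and in one of Nlrp3 (4.51% of all windows), and a C/EBP motif in a window of Il1r1 and in one of Il1rl1 (6.92%). A match is a description of letters, and its absence from a window says nothing of a factor.

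The remaining genes lie on chromosomes 1, 9, 11 and 16. Il1r2 (40074079 to 40125231), Il1r1 (40225080 to 40317257) and Il1rl1 (40429570 to 40465415) form a row on chromosome 1, with gaps of 99.8 kb and 112 kb. Casp1 (5298517 to 5307265) and Il18 (50554827 to 50581840) are on chromosome 9, Nlrp3 is on chromosome 11 (59541568 to 59566956) and Il1rap on chromosome 16 (26581704 to 26730117). Antisense genes overlap Il1b, Il1r2 and Il1rap, the processed transcript Gm14023 overlaps Il1a on the other strand, and Bco2 and Tex12 overlap Il18 on the other strand. The strand setting of the counting is not given in the sources used here, so reads of such partners cannot be told apart.

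Library totals ran from 16826882 to 33034295 counts. Markers listed for each tissue matched the labels: hippocampal neuron genes summed to far more in every hippocampal library than in any cortical one, and cortical neuron genes the reverse. Libraries differed in choroid plexus genes, which summed to 44.3 to 2387 CPM (each gene's counts relative to the library total, on a fixed scale) in the hippocampus and 12.6 to 1041 CPM in the cortex, highest in the hippocampal libraries A261 (LPS 12 h) and A222 (saline). Levels below are CPM scaled by TMM over all 30 libraries, with group means ± SD over n = 3 after saline and n = 4 in every LPS group. Log2 fold changes carry standard errors (SE) from edgeR's quasi-likelihood test, fitted over all genes of a tissue, with Benjamini-Hochberg adjusted p and a threshold of 0.05. Ratios of pooled counts carry exact 95% intervals that cover counting error alone.

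LPS against saline was the first comparison, and it asked which parts of the system changed over a day. In the hippocampus 3 of the 9 members that could be tested rose at each time: Il1b, Il1a and Il1rn at 6 h and 12 h, and Il1b, Il1a and Casp1 at 24 h. In the cortex 3 rose at 6 h (Il1b, Il1a, Il1rn), 2 at 12 h (Il1b, Il1a) and 1 at 24 h (Il1a). Il1rl1 had too few counts in both tissues to be tested. Over all genes tested, the hippocampal share called higher was 2.96% at 6 h, 6.07% at 12 h and 6.76% at 24 h, and the cortical share was 2.3%, 4.13% and 3.73% at those times. The members were chosen with earlier results of these data known, so these shares are a description and no test.

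No member was called lower than saline by edgeR, where 2.15%, 6.28% and 6.6% of all genes were lower in the hippocampus and 1.2%, 2.99% and 2.38% in the cortex. At an unadjusted p under 0.05, Il1r1 was lower in the hippocampus at 12 h and 24 h (unadjusted p = 0.0191 and 0.0102, edgeR) and Il1rap in the cortex at 12 h (unadjusted p = 0.0307). The median log2 fold change of the 9 tested members was 0.52, 0.53 and 0.57 in the hippocampus and 0.60, 0.36 and 0.57 in the cortex. Over all genes tested it lay between -0.0036 and 0.0132. The hippocampal medians were the same with Il1rn at its counting bound.

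**Figure D1:**
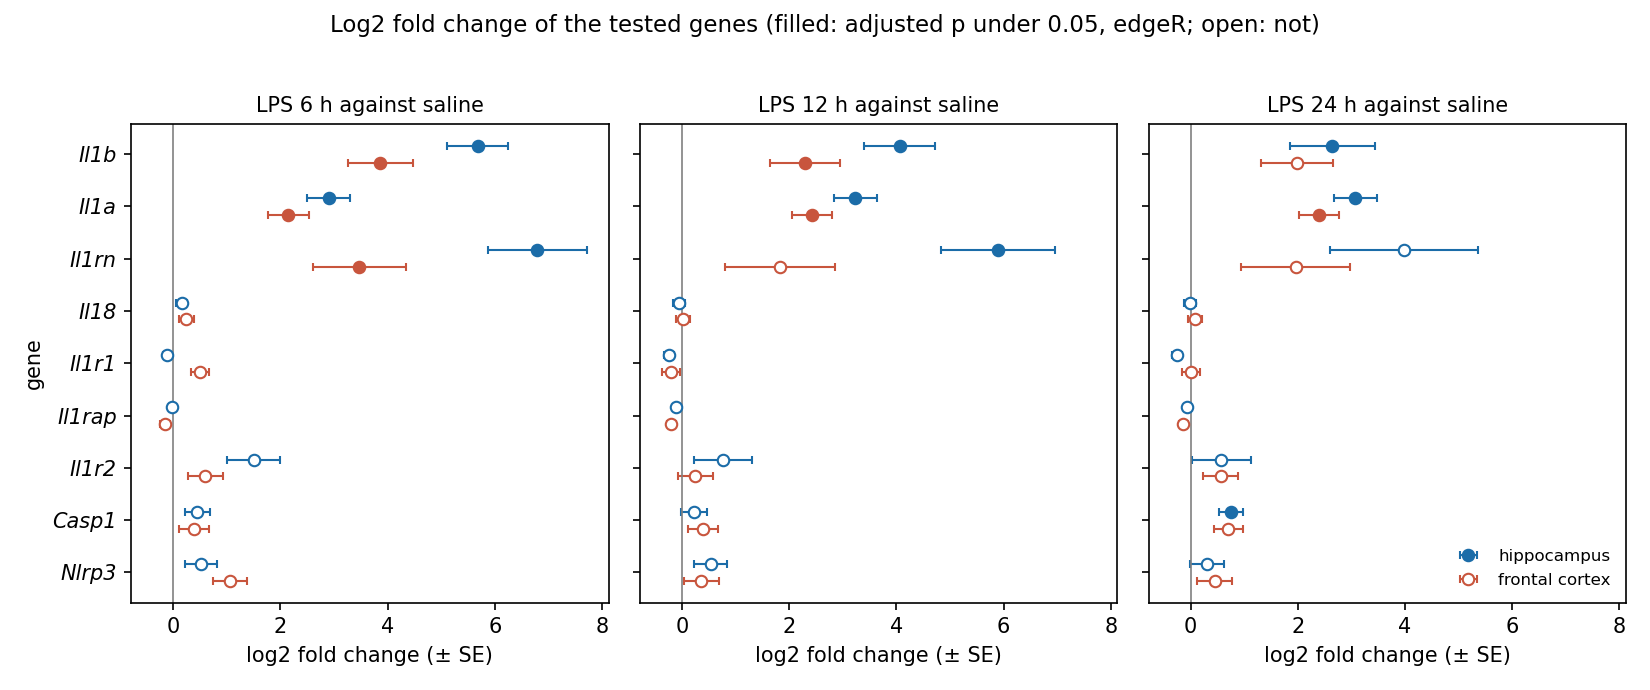
Log2 fold change (horizontal axis, ± SE) of the 9 tested genes after LPS at 6, 12 and 24 h against saline, in the hippocampus (blue) and frontal cortex (red), with filled points for an adjusted p under 0.05. In each panel the points of Il1b, Il1a and Il1rn lie further right than those of the receptors, Il18, Casp1 and Nlrp3. Il1rn is open in both tissues at 24 h and in the cortex at 12 h, as is Il1b in the cortex at 24 h. The hippocampal Il1rn values are fitted against 0 saline counts and set no size.

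Il1b, the gene of the fever-inducing cytokine IL-1 beta, was close to absent from saline hippocampus. Its 3 saline libraries held 3, 1 and 2 reads, or 0.105, 0.0348 and 0.0779 CPM. At 6 h after LPS the 4 libraries stood at 1.93, 6.46, 2.75 and 4.89 CPM, at 12 h at 0.946, 1.05, 1.64 and 1.43 CPM, and at 24 h at 0.197, 0.711, 0.498 and 0.506 CPM. Every LPS library was above every saline library at each time, and all 4 libraries at 6 h were above all those at 12 h, which were above all those at 24 h. Pooled counts were 55.6 times those of saline at 6 h (25.3 to 152), 18.6 times at 12 h (8.28 to 51.7) and 6.89 times at 24 h (2.92 to 19.8). The log2 fold changes were 5.68 ± 0.57 (adjusted p = 5.5e-06), 4.06 ± 0.66 (adjusted p = 0.000406) and 2.65 ± 0.79 (adjusted p = 0.0337), by edgeR.

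In the frontal cortex Il1b had a higher base, with 12, 5 and 11 reads after saline (0.596, 0.298 and 0.342 CPM). After LPS it stood at 2.58, 8.68, 5.31 and 7.28 CPM at 6 h, at 3.19, 1.85, 2.32 and 0.688 CPM at 12 h, and at 0.662, 1.46, 1.92 and 2.43 CPM at 24 h. All LPS libraries were above all saline libraries, but the 12 h and 24 h groups overlapped each other, and 1 library in each was close to the highest saline value. Pooled ratios were 15.1 (10.3 to 22.9), 5.24 (3.51 to 8.11) and 4.25 (2.82 to 6.62). The log2 fold changes were 3.86 ± 0.60 at 6 h (adjusted p = 0.00183, edgeR), 2.29 ± 0.65 at 12 h (adjusted p = 0.0489) and 1.99 ± 0.67 at 24 h, where the test was missed (adjusted p = 0.116). The call at 12 h was lost without any 1 of 6 of the 7 libraries compared, all 3 saline ones included (adjusted p 0.0742 to 0.236), with either other scaling (0.0513 each), with no filter (0.144) and with limma-voom under sample quality weights, called weighted limma-voom below (0.0652). The 24 h value in the cortex passed with DESeq2, the fit of all 30 libraries and the compared groups alone (adjusted p = 0.0241, 0.0461 and 0.0164). The hippocampal call of Il1b at 24 h was lost without any 1 of the 3 saline libraries, A275, A276 or A278 (adjusted p 0.0719 to 0.136), without A222 and A261 together (0.14), with weighted limma-voom (0.0888) and in the fit of all 30 libraries (0.117).

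Il1a, the gene of IL-1 alpha, rose at all 3 times in both tissues. In the hippocampus its saline libraries held 3, 6 and 6 reads, or 0.105, 0.209 and 0.234 CPM. The LPS libraries held 0.927, 2.04, 1.61 and 0.979 CPM at 6 h and 1.47, 1.46, 2.44 and 1.56 CPM at 12 h. At 24 h they held 1.23, 1.23, 2.24 and 1.47 CPM. The LPS groups overlapped one another and none of their libraries came near the saline ones. The log2 fold changes were 2.90 ± 0.41, 3.24 ± 0.39 and 3.07 ± 0.40 (edgeR, adjusted p = 4.71e-05, 3.26e-06 and 7.57e-06). Pooled ratios to saline were 7.79 (4.54 to 14.4), 10.1 (5.93 to 18.4) and 8.99 (5.27 to 16.5).

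Cortical Il1a after saline was at 0.645, 0.0595 and 0.498 CPM, with a single read in the library at 0.0595 CPM. The LPS libraries lay at 1.53 to 2.23 CPM at 6 h, 1.62 to 3.61 CPM at 12 h and 1.80 to 2.64 CPM at 24 h, all above saline. The log2 fold changes were 2.14 ± 0.38, 2.43 ± 0.37 and 2.40 ± 0.38 (edgeR, adjusted p = 0.00244, 0.000338 and 0.000458). Il1a was the 1 member still called in the cortex at 24 h, and its calls in all 6 comparisons with saline held under every alternative run.

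Il1rn, the gene of the IL-1 receptor antagonist, had no read in any of the 3 hippocampal saline libraries. After LPS the 4 libraries held 10, 22, 12 and 8 reads at 6 h, 6, 5, 6 and 11 reads at 12 h, and 0, 2, 3 and 2 reads at 24 h. Set against a floor of 3 reads over the saline group, expression was at least 16.7-fold higher at 6 h, at least 9.05-fold higher at 12 h and at least 2.3-fold higher at 24 h. These bounds leave out the counting error of the LPS reads, and the exact 95% lower limits of the ratios were 13.1, 6.88 and 1.42. Without any 1 saline library the same floor stood against a smaller saline total, and the bounds became 10.9 to 11.5-fold, 5.9 to 6.23-fold and 1.5 to 1.58-fold. At 24 h the exact lower limit of Il1rn was then below 1 (0.926 to 0.977), as it was without A276 (0.897). By edgeR the adjusted p was 4.9e-05, 0.000528 and 0.0621. The 24 h value passed with no filter, with weighted limma-voom and without A274 (adjusted p = 0.0398, 0.0436 and 0.0315). The libraries at 6 h and 12 h were all above saline, and 1 library at 24 h was at 0 like the saline ones.

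In the cortex Il1rn had 0, 0 and 5 reads after saline, all 5 in library A226. After LPS it had 8, 21, 24 and 15 reads at 6 h, 11, 10, 3 and 0 at 12 h, and 3, 2, 13 and 7 at 24 h. Pooled ratios were 11.8 (4.83 to 37.6), 3.87 (1.45 to 13) and 4.25 (1.60 to 14.2), with adjusted p of 0.0306, 0.351 and 0.361 (edgeR). Without A226 the saline counts were 0 and the levels at least 10.5-fold, 3.43-fold and 3.77-fold higher, with exact lower limits of 8.29, 2.58 and 2.84. The 24 h ratio was 2.77 without A276. The call at 6 h was lost without saline A223, saline A224 or LPS A242 (adjusted p 0.09 to 0.125) and with no filter (0.0672).

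**Figure D2:**
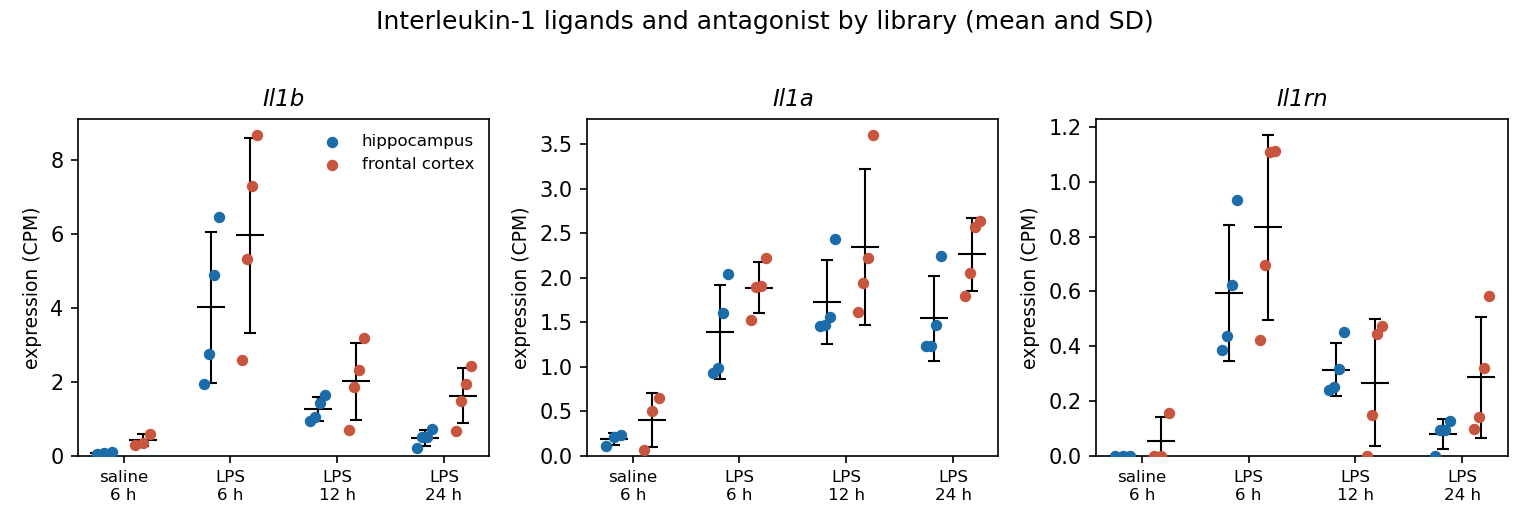
Expression (CPM) of Il1b, Il1a and Il1rn in each library (points) with group mean and SD (bars, ended at 0), saline 6 h and LPS 6, 12 and 24 h, in the hippocampus (blue) and frontal cortex (red). Il1b and Il1rn are highest at 6 h, while Il1a stays near its 6 h level to 24 h in both tissues.

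Between LPS times, edgeR called a fall of Il1b in the hippocampus alone and no change of Il1a in either tissue. The genes were not tested against each other. In the hippocampus Il1b fell by 1.62 on the log2 scale from 6 h to 12 h (SE 0.33, edgeR adjusted p = 0.0144), the 1 member called there, with 2.14% of all genes called. That call was lost without A259 (adjusted p = 0.0519), without A261 when saline A222 was left out as well (0.054), in the fit of all 30 libraries (0.0706) and with the compared groups alone (0.0924). From 12 h to 24 h Il1b changed by -1.41 ± 0.44 (adjusted p = 0.115) and Il1rn by -1.91 ± 0.59 (adjusted p = 0.1), and edgeR called no member. There 3 members had an unadjusted p under 0.05, DESeq2 called Il1b and weighted limma-voom Il1rn, and 2.14% of all genes were called.

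Il1a in the hippocampus changed by 0.34 ± 0.26 from 6 h to 12 h and by -0.17 ± 0.26 from 12 h to 24 h (adjusted p = 0.602 and 0.824, edgeR). Per exon length, pooled Il1b was at 2.95 times Il1a at 6 h, 0.763 times at 12 h and 0.317 times at 24 h in the hippocampus. In the cortex the ratio was 3.26, 0.906 and 0.743. After saline it was 0.414 and 0.966, from 6 and 28 reads of Il1b. In single libraries at 6 h the ratio ran from 1.77 to 5.18 in the hippocampus and from 1.75 to 4.72 in the cortex. Il1b thus exceeded Il1a in every library at that time. At 12 h the single libraries ran from 0.665 to 0.953 in the hippocampus. Cortical ones ran from 0.367 to 2.04 at 12 h, which overlapped the 6 h range.

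In the cortex Il1b changed by -1.57 ± 0.42 from 6 h to 12 h (adjusted p = 0.0891, edgeR; 0.0442 without A240 and 0.0237 in the fit of all 30 libraries) and by -0.30 ± 0.47 from 12 h to 24 h (adjusted p = 1). The 1 cortical member called between 6 h and 12 h was Il1r1, described with the receptors, where 1.23% of all genes were called. Between 12 h and 24 h edgeR called no member and 0% of all genes, with 0 members and 310 genes at an unadjusted p under 0.05, and DESeq2 and weighted limma-voom called none either.

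Il1r1, the signalling receptor for both IL-1 ligands, differed between the tissues. After saline it stood at 15.9, 14.5 and 12.3 CPM in the hippocampus and at 3.62, 4.64 and 3.92 CPM in the cortex. These ranges were far apart (log2 difference 1.82 ± 0.14, edgeR adjusted p = 3.06e-12). Il1rap was also higher in the hippocampus, at 43.0, 47.2 and 43.4 CPM against 34.6, 29.0 and 30.9 CPM (0.50 ± 0.08, adjusted p = 9.22e-06). These were the 2 members called between saline tissues, where 37.1% of all genes were called. Il1b was lower in the hippocampus by 2.41 ± 1.11 and Il1a by 1.22 ± 0.57 in the means, and both missed the test (adjusted p = 0.093 and 0.095). DESeq2 called Il1b as well (adjusted p = 0.00694), weighted limma-voom Il18 (0.0192), and edgeR without cortical A224 Il1a (0.0193). The saline tissues did not overlap for Il1b and overlapped for Il1a.

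In the hippocampus Il1r1 was at 13.3 ± 1.04, 12.1 ± 1.06 and 11.9 ± 0.588 CPM at 6, 12 and 24 h, overlapping the saline libraries (14.2 ± 1.81 CPM). The log2 fold changes were -0.11 ± 0.09, -0.23 ± 0.09 and -0.26 ± 0.09 (edgeR, adjusted p = 0.687, 0.112 and 0.0672). Without saline A226 the 24 h value was -0.35 and passed the test (adjusted p = 0.015), as did 12 h (0.0241), and 24 h passed with no filter and weighted limma-voom (0.0442 and 0.0347). In the cortex Il1r1 stood at 4.58, 7.25, 5.45 and 5.52 CPM at 6 h, and 1 of these libraries lay within the saline range. That difference was 0.50 ± 0.17 (adjusted p = 0.124), and it passed the test in weighted limma-voom (adjusted p = 0.0381) and in a fit of all 30 libraries (adjusted p = 0.033).

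From 6 h to 12 h cortical Il1r1 fell by 0.71 on the log2 scale (SE 0.16, edgeR adjusted p = 0.0323) to 4.20, 3.22, 3.46 and 3.12 CPM. All 4 libraries at 12 h were below all 4 at 6 h. The call was lost without A241, A242 or A243 at 6 h, or A259, A260 or A261 at 12 h (adjusted p 0.0608 to 0.0978), with weighted limma-voom (0.0654) and with the compared groups alone (0.0689). Il1rap stayed within 38.1 to 48.4 CPM in all 15 hippocampal and 24.9 to 34.6 CPM in all 15 cortical libraries, and its changes after LPS were between -0.20 and -0.02 on the log2 scale (adjusted p 0.196 to 0.949).

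Il1r2, the decoy receptor, had few reads. In the hippocampus it stood at 0.175, 0.278 and 0.234 CPM after saline and at 0.618, 0.425, 0.778 and 0.870 CPM at 6 h after LPS, with no overlap. The interval of the pooled ratio of 2.9 (1.70 to 5.16) lay above 1, but by edgeR the difference missed the test (1.5 ± 0.49, adjusted p = 0.0922). It passed with no filter on low counts, in the fit of all 30 libraries and in a fit of the compared groups alone (adjusted p = 0.0109, 0.0498 and 0.0167). At 12 h and 24 h the ratios were 1.79 (0.994 to 3.3) and 1.55 (0.847 to 2.92). In the cortex they were 1.55 (0.959 to 2.56), 1.27 (0.772 to 2.12) and 1.58 (0.978 to 2.6), and each of these 5 intervals included 1. The cortical libraries at 6 h (0.476 to 0.738 CPM) were also all above the saline ones (0.373 to 0.447 CPM), and that difference missed the test (adjusted p = 0.319, edgeR).

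Per exon length the decoy was scarce beside Il1r1 in the hippocampus and less so in the cortex. The pooled ratio of Il1r2 to Il1r1 was 0.0533 after saline, 0.165 at 6 h, 0.108 at 12 h and 0.0965 at 24 h in the hippocampus. In the cortex it was 0.337, 0.362, 0.46 and 0.497. In the saline hippocampus the 3 libraries ran from 0.0366 to 0.064 and at 6 h from 0.109 to 0.214, without overlap. In the cortex the range at 6 h (0.219 to 0.537) enclosed that of saline (0.299 to 0.411).

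Il1rl1, the receptor for IL-33, was near the limit of detection, with 0.0473 to 0.403 CPM over the 30 libraries. Its pooled reads in the hippocampus were 11 after saline and 7, 17 and 11 after LPS at 6, 12 and 24 h. Cortical reads were 11 after saline and 9, 17 and 18. All 6 ratios to saline, from 0.615 to 1.5, had intervals that included 1, so no difference was detectable at this depth.

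**Figure D3:**
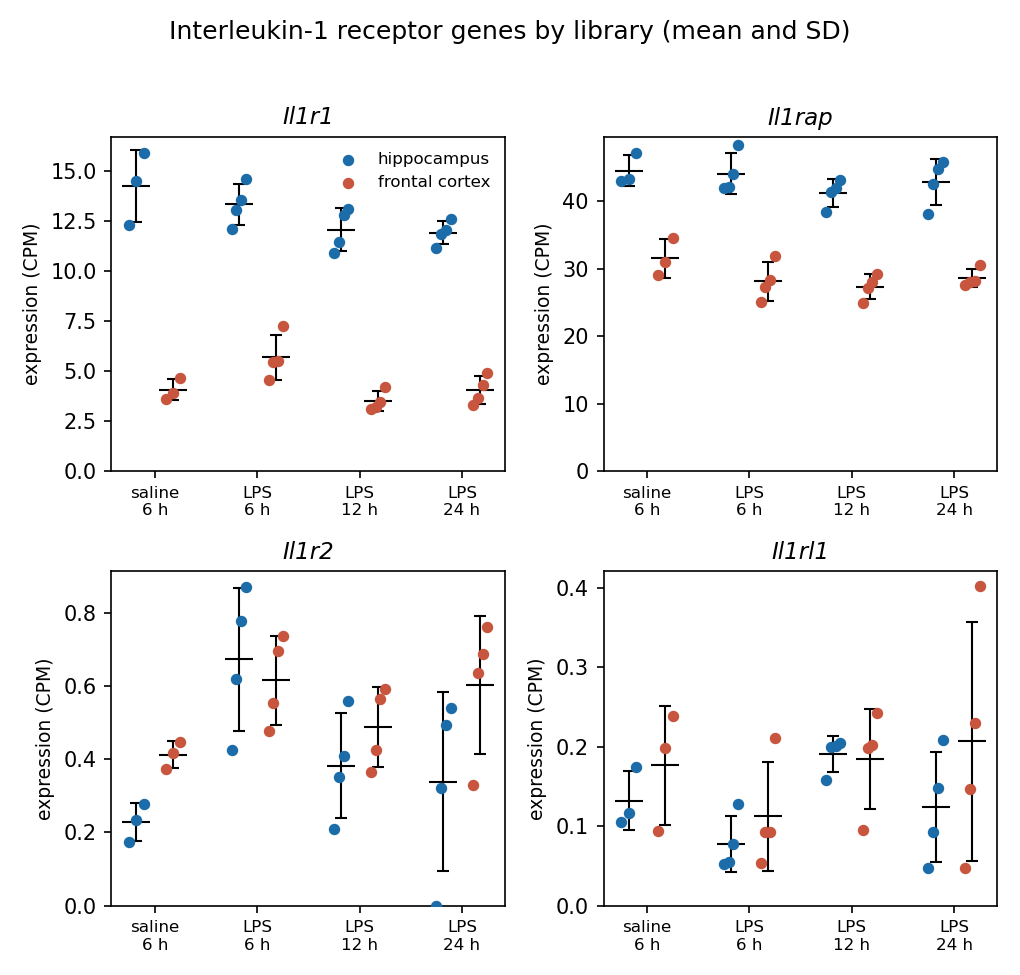
Expression (CPM) of Il1r1, Il1rap, Il1r2 and Il1rl1 in each library (points) with group mean and SD (bars), saline 6 h and LPS 6, 12 and 24 h, in the hippocampus (blue) and frontal cortex (red). Il1r1 and Il1rap separate the tissues in every group, and Il1r2 at 6 h lies above its saline libraries in both tissues.

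Casp1, the protease of the inflammasome, rose at 24 h in the hippocampus. It stood at 0.839, 1.18 and 1.25 CPM after saline and at 2.02, 1.28, 1.74 and 2.25 CPM at 24 h, where the lowest LPS library was just above the highest saline one. The log2 fold change at 24 h was 0.75 ± 0.22 (edgeR, adjusted p = 0.0272), after 0.45 ± 0.23 at 6 h and 0.23 ± 0.23 at 12 h (adjusted p = 0.388 and 0.627). The 24 h call was lost without saline A222 or A224 or LPS A274 or A278 (adjusted p 0.0562 to 0.153), without A222 and A261 together (0.155), in the fit of all 30 libraries (0.0589) and with the compared groups alone (0.0598). In the cortex Casp1 at 24 h was 0.71 ± 0.28 above saline (adjusted p = 0.173), with all 4 LPS libraries (1.61 to 2.73 CPM) above the saline ones (1.06 to 1.44 CPM).

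Microglia genes were also higher at 24 h. The 7 listed microglia markers summed to 190 to 237 CPM in hippocampal saline libraries, 176 to 214 CPM at 6 h, 235 to 252 CPM at 12 h and 332 to 365 CPM at 24 h, and none was at 0. At 24 h all 7 were called higher in the hippocampus and 4 of 7 in the cortex. Of all genes tested, 6.76% and 3.73% were called higher there. Cortical sums were 180 to 229 CPM after saline. At 6, 12 and 24 h they were 151 to 208, 242.99 to 413 and 266 to 371 CPM. The median log2 fold change of the 7 at 6, 12 and 24 h was -0.20, 0.39 and 1.04 in the hippocampus. In the cortex it was -0.19, 0.75 and 0.83. In bulk tissue more cells of a type and more RNA per cell cannot be told apart, and the part of these markers in the Casp1 result was not tested.

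Nlrp3, the sensor, was at 0.699, 0.591 and 0.623 CPM in the saline hippocampus and at 0.657, 1.27, 0.726 and 1.03 CPM at 6 h, a difference of 0.52 ± 0.31 on the log2 scale (edgeR, adjusted p = 0.483). In the cortex it stood at 0.596, 0.476 and 0.840 CPM after saline and at 1, 1.80, 1.06 and 1.62 CPM at 6 h, with no overlap. That difference was 1.05 ± 0.32 (adjusted p = 0.0779), and weighted limma-voom and the fit of all 30 libraries called it (adjusted p = 0.0174 and 0.0374). At 12 h and 24 h the differences were between 0.31 and 0.53 in both tissues (adjusted p 0.309 to 0.595).

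Il18, the other cytokine cut by caspase-1, had 7.1 to 10.1 CPM over the hippocampal libraries and 8.0 to 13.4 CPM over the cortical ones. Its log2 fold changes were between -0.05 and 0.25, and none passed the test (adjusted p 0.314 to 0.962). No group of LPS libraries was apart from saline.

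**Figure D4:**
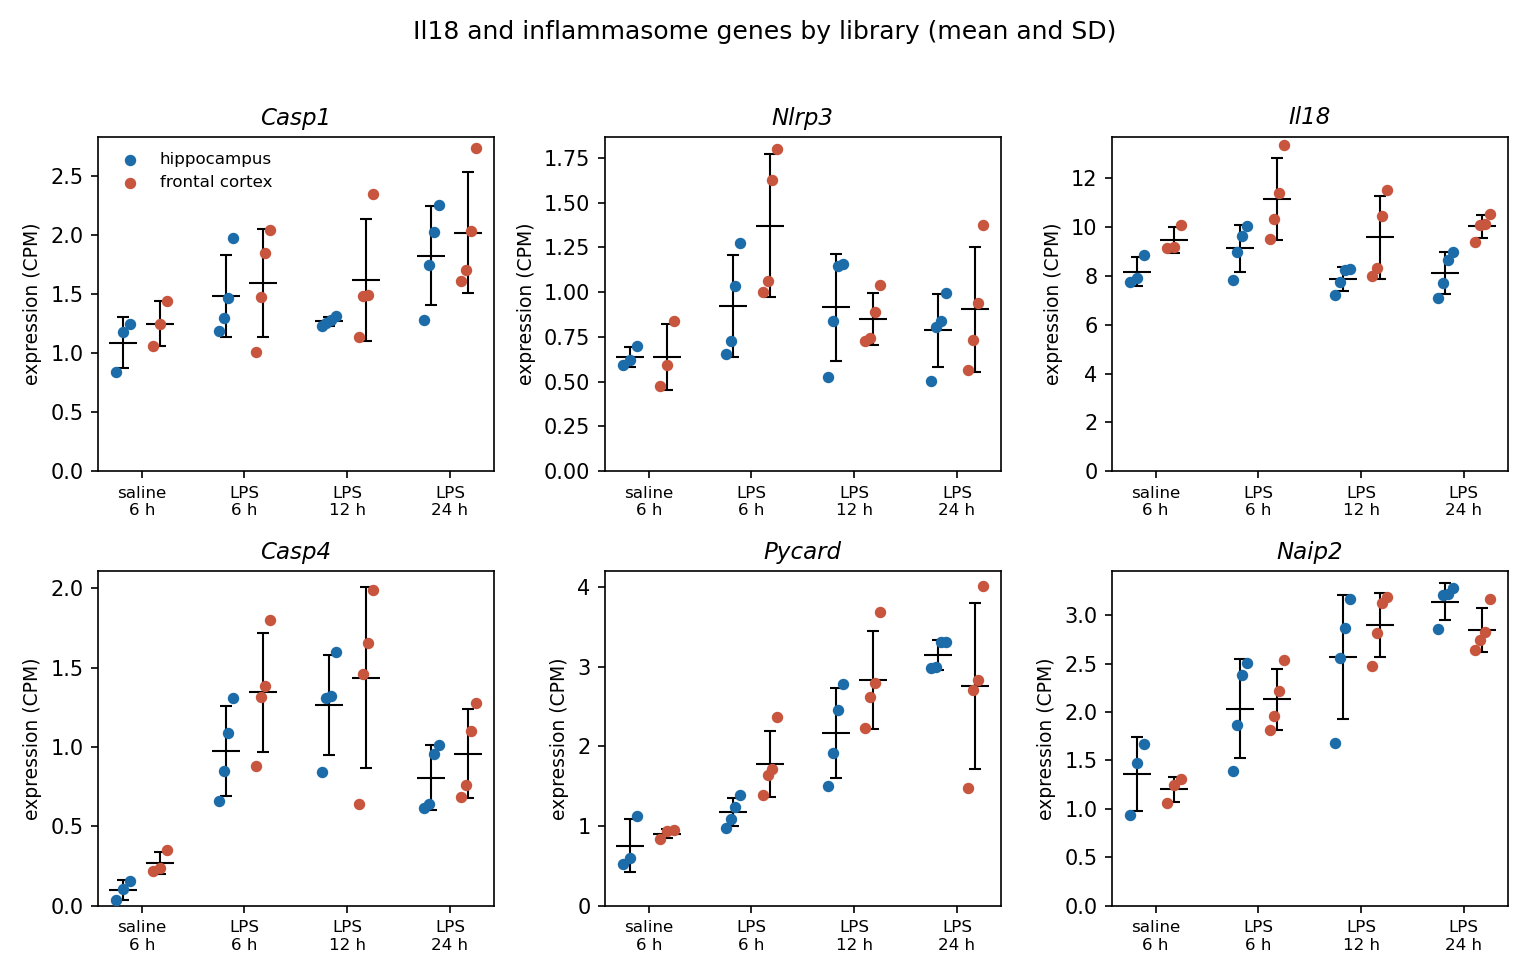
Expression (CPM) of Casp1, Nlrp3 and Il18 and of the inflammasome genes Casp4, Pycard and Naip2 in each library (points) with group mean and SD (bars), saline 6 h and LPS 6, 12 and 24 h, in the hippocampus (blue) and frontal cortex (red). Casp4 is above saline in all LPS libraries, Pycard is higher at 12 h and 24 h than after saline, and Il18 overlaps saline in all groups.

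Of 19 further inflammasome genes on the list, 15 could be tested. Hippocampal rises numbered 1, 4 and 4 at 6, 12 and 24 h and falls 0, 1 and 1. Cortical rises numbered 2, 4 and 4 and falls 0, 1 and 1. Of all genes tested in the hippocampus, 2.96%, 6.07% and 6.76% rose and 2.15%, 6.28% and 6.6% fell. In the cortex 2.3%, 4.13% and 3.73% rose and 1.2%, 2.99% and 2.38% fell. The list's median log2 fold change was 0.11, 0.17 and 0.27 in the hippocampus and 0.18, 0.65 and 0.77 in the cortex. The gene called at every time in both tissues was Casp4, which encodes caspase-11, the intracellular LPS sensor of mice. It stood at 0.0985 ± 0.0608 CPM in the saline hippocampus and at 0.975 ± 0.282, 1.27 ± 0.313 and 0.806 ± 0.207 CPM at 6, 12 and 24 h (pooled ratios 9.9, 13.8 and 8.74). In the cortex it was at 0.268 ± 0.0698 CPM after saline, and the ratios were 5.22, 5.92 and 3.87. Casp4 had few reads after saline, so the size of these ratios is uncertain.

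Pycard, which encodes the adaptor ASC, rose by 1.55 ± 0.25 at 12 h and 2.08 ± 0.24 at 24 h in the hippocampus (edgeR, adjusted p = 0.000129 and 1.93e-06). In the cortex it rose by 1.64 ± 0.29 and 1.59 ± 0.30 (adjusted p = 0.00133 and 0.00195). Naip2, a sensor of bacterial secretion-system proteins, rose by 0.92 ± 0.23 and 1.20 ± 0.23 in the hippocampus and by 1.29 ± 0.18 and 1.26 ± 0.18 in the cortex at those times (adjusted p 9.19e-05 to 0.0082). Naip2 belongs to a family of near-identical copies, so its counts are uncertain. The other called genes, named after their values were seen, were Casp8, which rose at 12 h and 24 h in both tissues, and Txnip, which fell then by 0.57 to 0.66 on the log2 scale. Txnip encodes a thioredoxin-binding protein that can activate NLRP3.

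The order of the members by level per exon length was headed by Il18 in every group. In the saline hippocampus Il18 (7.93 CPM per kb) was followed by Il1rap (3.92), Il1r1 (2.24) and Casp1 (0.728), each apart from the next over the libraries. Nlrp3 (0.157), Il1r2 (0.12), Il1a (0.0924), Il1b (0.038) and Il1rl1 (0.0191) followed, each overlapping its neighbour. At 6 h after LPS Il1b (2.10 ± 1.08 CPM per kb) was level with Il1r1 (2.10 ± 0.163) in the hippocampus. In the cortex at 6 h Il1b (3.13 ± 1.39 CPM per kb) overlapped Il1rap (2.48 ± 0.253) and stood below Il18 (10.8 ± 1.62). At 24 h Il1a was above Il1b in the hippocampus without overlap (0.783 ± 0.243 and 0.251 ± 0.111 CPM per kb), and the 2 genes overlapped in the cortex.

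**Figure D5:**
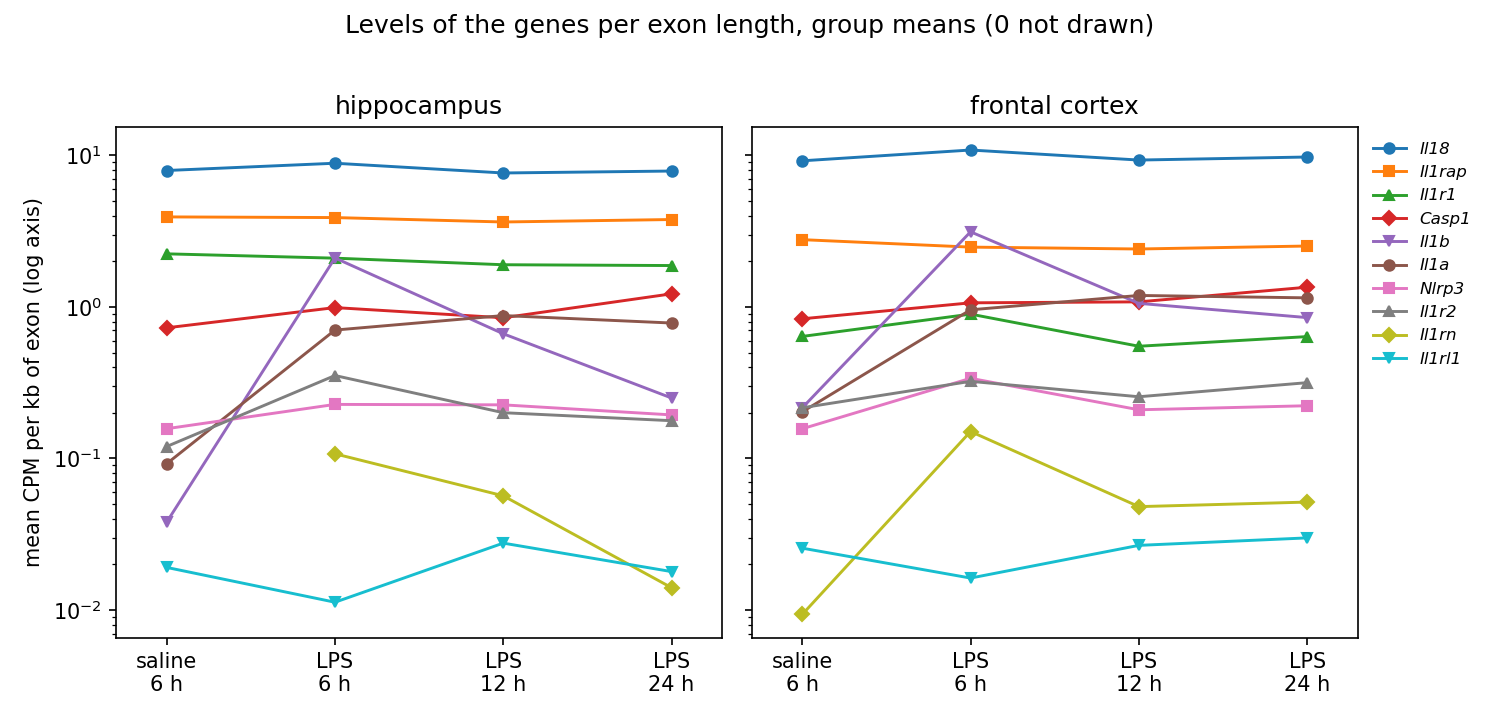
Group mean level of each of the 10 genes per exon length (CPM per kb, log axis) after saline at 6 h and LPS at 6, 12 and 24 h, in the hippocampus (left) and frontal cortex (right), with group means of 0 not drawn. Il18 is highest in every group, and Il1b is above Casp1 and Il1a at 6 h, above Il1rap too in the cortex, and lower again at 24 h.

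Responses to LPS were then compared between tissues by an interaction over all 30 libraries. EdgeR called no member at 6, 12 or 24 h, where 0%, 0.0963% and 0.125% of all genes were called. At an unadjusted p under 0.05 the members numbered 1, 0 and 0. Weighted limma-voom called none of the 9, and DESeq2 none of the 9, 3 and 4 for which it gave an adjusted p. The 1 was Il1r1 at 6 h, whose response was lower in the hippocampus by 0.59 ± 0.19 on the log2 scale (unadjusted p = 0.00336, adjusted p = 0.762). For Il1b the hippocampal response exceeded the cortical one by 1.83 ± 1.19 at 6 h, 1.77 ± 1.22 at 12 h and 0.66 ± 1.24 at 24 h (adjusted p = 0.819, 0.649 and 0.94). The few Il1b reads after saline leave these differences wide, so a larger or smaller hippocampal response was not detectable.

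Neutrophil genes were also higher after LPS. The 11 listed neutrophil markers summed to 4.99 to 5.11 CPM in the saline hippocampus and to 13.4 to 15, 9.29 to 14.3 and 8.68 to 14.9 CPM at 6, 12 and 24 h. Cortical sums were 4.7 to 5.91 CPM after saline and 21.4 to 27.5, 12.5 to 20.6 and 12 to 15.1 CPM after LPS. Ly6g, Camp and Retnlg were at 0 in saline hippocampus and Ly6g in saline cortex. Ly6g and Elane were at 0 in the hippocampus at 6 h, and Elane in the cortex. Of 7 tested, 5 were called higher in the hippocampus at each time, and 6, 6 and 4 in the cortex. The hippocampal share of all genes called higher was 2.96%, 6.07% and 6.76% by time, and called lower 2.15%, 6.28% and 6.6%. The cortical shares were 2.3%, 4.13% and 3.73% higher and 1.2%, 2.99% and 2.38% lower. The part of the neutrophil markers in the member results was not tested. The 5 monocyte markers summed to 2.75 to 4.05 CPM in saline hippocampus. At 6, 12 and 24 h they summed to 5.98 to 8.14, 3.63 to 4.71 and 3.27 to 4.64 CPM. Cortical sums were 6.13 to 8.24 CPM after saline and 10.4 to 14.0, 6.38 to 7.73 and 6.10 to 8.91 CPM after LPS. Plac8 was at 0 after saline in both tissues. Of 3 tested in the hippocampus, 1 was called higher at each time and 1 lower at 12 h. Of 4 tested in the cortex, 2 were called higher at each time and 1 lower at 12 h and 24 h. In saline cortex the 4 border macrophage markers summed to 8.93 to 9.23 CPM. They were lower at 6, 12 and 24 h, at 4.71 to 6.97, 4.77 to 7.25 and 5.73 to 8.55 CPM. There 2 of 4 were called lower at each time. Hippocampal sums were 2.85 to 4.72 CPM after saline and 2.50 to 4.36, 3.26 to 4.47 and 3.74 to 5.64 CPM after LPS. Of 3 tested there, none was called at 6 h, and 1 was higher and 1 lower at 12 h and 24 h.

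Among other ligands and binding proteins of the family, 2 of 7 could be tested. Il18bp, the soluble inhibitor of IL-18, rose at 12 h by 0.96 ± 0.18 in the hippocampus and 0.89 ± 0.26 in the cortex (edgeR, adjusted p = 0.000544 and 0.0475). Il33, an alarmin of the family, rose in the hippocampus by 0.43 ± 0.10 at 12 h and 0.85 ± 0.10 at 24 h (adjusted p = 0.00577 and 4.2e-06), to 38.5 ± 4.67 CPM from 21.5 ± 2.73 CPM. Il36g, which encodes IL-36 gamma and was named after its counts were seen, had 0 reads in all 6 saline libraries. It had 11, 6 and 3 pooled reads after LPS in the hippocampus and 21, 7 and 9 in the cortex. Against a floor of 3 reads over the saline group, the bounds at 6 h were 3.54-fold in the hippocampus and 6.09-fold in the cortex. With 0 saline reads they set no size of the rise. These values leave out the counting error of the LPS reads.

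Of 6 other receptors of the family 4 could be tested, and edgeR called none of them in the 24 tests against saline, of which 3 had an unadjusted p under 0.05 (adjusted p 0.0539 to 0.992). All 12 signalling genes were tested. Hippocampal rises among them numbered 1, 0 and 0 by time and falls 0, 2 and 1. Cortical rises numbered 0, 1 and 1, with no falls. Over all genes, the hippocampal share past the threshold in either direction was 5.11%, 12.3% and 13.4%. The cortical share was 3.5%, 7.12% and 6.11%. In the hippocampus the adaptor gene Myd88 rose by 0.69 ± 0.14 at 6 h (edgeR, adjusted p = 0.00255), and Peli1, a ubiquitin ligase gene of the pathway, fell by 0.21 at 12 h and 0.18 at 24 h (adjusted p = 0.0155 and 0.0418). The kinase gene Irak2 fell by 0.28 at 12 h (adjusted p = 0.049). In the cortex the kinase gene Irak4 rose by 0.81 ± 0.22 at 12 h and 0.79 ± 0.22 at 24 h (adjusted p = 0.032 and 0.0402). The signalling list's median was between -0.03 and 0.06 over these comparisons.

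Of 10 NF-kB target genes known to answer IL-1, 8 were tested in the hippocampus, where 4, 4 and 3 rose and 1, 2 and 2 fell at 6, 12 and 24 h. In the cortex 9 were tested and 6, 4 and 4 rose. The shares of all hippocampal genes that rose were 2.96%, 6.07% and 6.76%, and those that fell 2.15%, 6.28% and 6.6%. In the cortex 2.3%, 4.13% and 3.73% of all genes rose. Lcn2, which encodes an iron-sequestering acute phase protein, was at 0.23 ± 0.0792 CPM in the saline hippocampus and at 11.8 ± 1.64, 7.42 ± 1.72 and 3.47 ± 0.608 CPM after LPS. Its pooled ratios were 52.2, 33.5 and 15.7. The chemokine gene Ccl2 had 3 saline reads in each tissue and pooled ratios of 55.4 (18.6 to 271) and 60.6 (20.4 to 296) at 6 h. The fallen genes in the hippocampus were Nfkbia, which encodes the NF-kB inhibitor and was lower at all 3 times, and Ptgs2, the prostaglandin synthase gene, at 12 h and 24 h. They are named after their values were seen.

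Over all 30 libraries, the 5 genes most like Il1b in log2(CPM + 1), among 15018 genes with a mean of at least 1 CPM, were Tlr2 (Pearson r = 0.925), Zfp36 (0.915), Gm49339 (0.903), Fas (0.873) and Cd14 (0.872). Among the members, Il1rn followed Il1b most closely within each tissue (r = 0.934 over 15 hippocampal and 0.886 over 15 cortical libraries). Nlrp3 had r = 0.552 and 0.81 with Il1b, and Casp1 had -0.0342 and -0.0337. The genes most like Il1r1 were Kcng2 (0.972), Hspa2 (0.971), Napepld (0.969), Serpina3n (0.968) and Jun (0.968), and these points share the difference between the tissues. The values are descriptions over libraries that also share the LPS groups.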

How the data were processed

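The authors deposited raw read counts of each gene in 30 libraries, from stranded poly(A) libraries sequenced as paired reads of 150 bp, per the labels' protocols. Per the submitters' processing notes, the tools named are FastQC, STAR 2.6.0a, Trim Galore 0.4.1 and DESeq2, and the build is GRCm38 (mm10), with no role or order stated. For the counter, its annotation and its strand setting, the sources used here give nothing. Of 48820 identifiers, 48058 (98.4%) had a symbol in GENCODE M21, and identifiers without one held at most 0.29% of a library. The symbols of 4 Il36 genes were matched through older names in RefSeq.

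The 15 libraries of a tissue shared a fit in edgeR 4.0.16 under R 4.3.3 (TMM, robust glmQLFit and glmQLFTest, after filterByExpr at 10 reads, 15 in total), and all 30 libraries were fitted for differences between tissues, 14 comparisons in all. P-values are two-sided and adjusted over all genes tested (17289 in the hippocampus, 17111 in the cortex, 17650 in both). Pooled ratios were computed for genes with at most 30 saline reads, with 3 reads over the saline group as the floor where there were none. These intervals cover counting error alone, and the floors leave out the counting error of the LPS reads. Exon lengths are the union of annotated exons.

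Each library's title carries a code, read here as the mouse although the labels do not say so, and 14 of 16 codes occur in both tissues. Deviations from group means, over 13646 genes, had r of -0.0805 to 0.323 between tissues with 1 code (median 0.114), above 0.1 for 7 codes. The fits had no block, and a block was an alternative. Pairs of replicates had a chi-square of 2.23 to 25 per gene, beyond sampling noise, so none was counted as a duplicate. The fits were tested first on simulated data with the same spread for every gene. The genes changed there had a mean of at least 1 CPM, so members below that level are not covered.

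Named genes were the 10 members, up to 3 called genes of each pathway list per comparison by size of change, and the 5 genes most like Il1b and Il1r1. Genes named beyond this are said to be. The members and lists were chosen with earlier results of these data known. Alternatives were scaling by DESeq2 size factors or by totals, a stricter filter (1 CPM in 4 libraries) or none, DESeq2 1.42.0, limma-voom with sample quality weights (limma 3.58.1, weighted limma-voom in the text), the compared groups alone, all 30 libraries in 1 fit, each compared library left out in turn, and leaving out hippocampal A222 and A261 together.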

Additional observations from a re-analysis of the deposited data

Results flagged for a closer look

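In 60 sets of 4 libraries (10 genes in 6 LPS groups), 2 held a library that stood apart from its group by Dixon's test at the 95% level, where about 1 in 20 is flagged by chance. Il1a in the hippocampus at 12 h after LPS was at 2.44 CPM in library A260, against 1.46 to 1.56 CPM in the other libraries of the group. Il1rl1 in the same group was at 0.158 CPM in library A258, against 0.2 to 0.205 CPM in the others, a difference of 1 or 2 reads. No member's response to LPS differed between the tissues by the interaction test, so none is listed here for that.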

How the results depend on the processing

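For single members, 1944 of 2120 alternative values kept the direction and the side of the threshold. Another 42 were no longer past it and 27 newly passed it. A further 107 that passed in neither changed sign or became 0, and none of the called ones changed sign. Only called results could be among the 42, so 2120 is not their base. Against saline, calls held in 5 of 15 alternatives for cortical Il1b at 12 h and 10 of 14 for cortical Il1rn at 6 h. In the hippocampus at 24 h they held in 7 of 16 for Il1b and 9 of 16 for Casp1. Between 12 h and 6 h they held in 13 of 17 for hippocampal Il1b and 8 of 16 for cortical Il1r1. The other called results lost none. In the hippocampus at 24 h against saline the count of called members was 3, but 5 with no filter, 1 without A222 and A261, 1 in the fit of all 30 libraries, and 1 to 3 on leaving out single libraries. Between 12 h and 6 h there it was 1, but 0 without A222 and A261, 0 in the fit of all 30 libraries, 0 with the compared groups alone, and 0 to 1 on leaving out single libraries. Between 24 h and 12 h it was 0, but 2 with no filter and 1 with DESeq2, weighted limma-voom or the compared groups alone. In the cortex against saline it was 3 at 6 h, but 5 with weighted limma-voom and 5 in the fit of all 30 libraries, and 2 with no filter, with the stricter filter or without A223, A224 or A242. It was 2 at 12 h, but 1 with weighted limma-voom, with no filter, with DESeq2 size factors or with library totals, and 1 to 2 on leaving out single libraries. It was 1 at 24 h, but 2 with DESeq2, in the fit of all 30 libraries or with the compared groups alone. Between 12 h and 6 h in the cortex it was 1, but 0 with weighted limma-voom, 2 in the fit of all 30 libraries, 0 with the compared groups alone, and 0 to 2 on leaving out single libraries. The cause was not tested. With the code in the titles as a block, as a fixed or a random effect, the number of members called in the response was 0 at each time. As a random effect it was 2 between saline tissues, where the fixed effect was not run.

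Il1rn had too few reads for the stricter filter, for the usual filter without A241 at 6 h or A261 at 12 h in the hippocampus, and in some fits of 2 groups, and has no test there. Other scalings shifted the overall median log2 fold change by no more than 0.0787. Over all genes, weighted limma-voom (tool and sample weights changed together) called 1548 in the hippocampus at 6 h where edgeR called 884, and 1112 and 1792 in the cortex at 6 h and 24 h where edgeR called 599 and 1045. Il1b, Il1a, Il1rn, Il1r2 and Il1rl1 rest on few saline reads, which limits their fold changes and the tissue comparison. Il1a had 15 pooled saline reads in the hippocampus and 30 in the cortex. The 3 saline libraries per tissue serve all times, so the comparisons with saline share them.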

Other observations

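Il18rap, the accessory chain of the IL-18 receptor, had too few reads to be tested by edgeR, with 4 pooled reads in saline cortex and 26, 23 and 24 at 6, 12 and 24 h after LPS. The pooled ratios were 5.65 (1.96 to 22.3), 4.64 (1.59 to 18.5) and 5.10 (1.75 to 20.2), counting error alone. In the hippocampus it had 18 reads after saline and 28, 34 and 25 after LPS, ratios of 1.5 (0.803 to 2.88), 1.83 (1.01 to 3.44) and 1.37 (0.717 to 2.66). Mefv, the gene of the inflammasome sensor pyrin, had no saline read in either tissue and 6, 5 and 1 pooled reads after LPS in the hippocampus and 9, 10 and 5 in the cortex. Both were chosen after their counts were seen.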
